A study of Mus musculus with 70 samples.

Results

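Surfactant and lung epithelial genes were followed through serial passage of renal cancer cells in mice. The set held 10 genes known for their place in lung epithelium: Sftpc, Sftpb, Sftpa1, Sftpd, Scgb1a1, Nkx2-1, Aqp5, Lamp3, Napsa and Cxcl15. Members were all non-control probes assigned to these symbols, which gave 13 probes of 55681, and 10 genes of the 21154 on the array. Sftpb, Sftpd and Aqp5 had 2 probes each. The brighter probe on average stood for the gene, and the other is reported beside it.

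The cells were RENCA, a mouse renal adenocarcinoma line of BALB/c origin, made to express green fluorescent protein from a lentiviral vector (GFP-RENCA). Before any passage in mice they formed the group P0. Cells were then cycled through wild type BALB/c mice, described by the study as female and 6 weeks old, in 3 routes. In the Kidney Primary Tumor route (KPT), they were put under the renal capsule and recovered from the kidney tumour. In the Tail-to-Lung Metastases route (T-LM), they entered through the tail vein and were recovered from lung. In the Kidney-to-Lung Metastases route (K-LM), they were put under the renal capsule and recovered from lung metastases. The number of cycles is written P1 to P6. Every group, P0 included, carried the GFP vector. RNA samples numbered 2 for P0. For P1 to P6 in order, there were 5, 2, 2, 3, 5 and 5 of KPT, then 5, 2, 3, 4, 6 and 4 of T-LM, and 1, 1, 5, 3, 4 and 3 of K-LM. K-LM P1 and P2 have no replicate. According to the study's methods, digested tissue was kept in culture until no GFP-negative cells were found, and purity was judged by microscopy or flow cytometry. The sample labels instead name the metastasis or tumour as the source and describe homogenisation with a tissue device, so the labels and the methods do not settle how many host cells the RNA samples held. The labels number the replicates and do not say which animals they came from, so the p-values measure only the spread between these samples.

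In lung, surfactant is made by alveolar type 2 cells, which secrete lipids together with the surfactant proteins A, B, C and D. Proteins B and C are small hydrophobic proteins that spread the lipid film, and A and D are collectins that bind microbes. The lipids are stored in lamellar bodies, whose membrane holds Lamp3. Napsa encodes an aspartic protease that takes part in trimming the surfactant B precursor, and it is also made in the renal tubule. Scgb1a1 encodes the main secretory protein of airway club cells. Aqp5 is a water channel of alveolar type 1 cells and of gland cells. Nkx2-1 encodes the transcription factor that specifies lung epithelium and drives surfactant genes, and Cxcl15 (lungkine) is a chemokine of lung epithelium. Their levels in a renal line passed through lung or kidney bear on the question of whether lung genes appeared in these samples, and whether they moved together as they would in host lung cells.

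The 65 RNA samples were measured on 70 single-colour arrays, since 5 samples had a repeat array, namely P0 replicates 1 and 2 and KPT P6 replicates 1, 2 and 4. A level is the log2 of the background-subtracted signal, counted from the array's own 75th percentile, so 0 is as bright as a strongly expressed gene and each unit is a 2-fold step. A spot was well above background where the scanner software said so. Levels of spots that failed this only mark the noise floor, and their order carries no meaning. The share of probes that passed ranged over arrays from 25.2% to 55.2% (median 33.0%). The array at 55.2% was T-LM P1 replicate 2, and the other T-LM P1 arrays had 34.9% to 37.4%. The 3 K-LM P6 arrays and the 5 repeat arrays lay on a slide scanned with a later software version (the late slide), which was a term in the fits that used it. Single levels and group means are not adjusted for that slide. A T-LM P1 sample without a number in its title was placed by its other labels and is called replicate 1. Changes were tested with limma over all probes, and a probe was "called" where the adjusted p (Benjamini-Hochberg) did not exceed 0.01.

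Promoter sequences were at hand for 6 of the 10 members in the RefSeq table (GRCm38.p6). They are shown because Nkx2-1, which acts on surfactant promoters, and the Foxa factors described below both have short known motifs. The 250 bases before the start were searched on both strands for CTCAAG, the core that NKX2-1 prefers, and TGTTTNC, a core of forkhead factors. CTCAAG lay in 13.3% and TGTTTNC in 17.8% of 32851 promoters of that length. The first 2 sequences below hold CTCAAG and the third holds only the forkhead core. All are written 5' to 3' on the gene's strand in lower case, with matches in capitals:
Sftpb, plus strand of chr6:72304360-72304609: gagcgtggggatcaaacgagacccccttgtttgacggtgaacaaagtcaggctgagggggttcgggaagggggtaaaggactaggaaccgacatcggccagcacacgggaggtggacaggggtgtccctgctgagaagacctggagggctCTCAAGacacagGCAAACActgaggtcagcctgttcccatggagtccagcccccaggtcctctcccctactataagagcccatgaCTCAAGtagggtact
Sftpa1, plus strand of chr14:41131538-41131787: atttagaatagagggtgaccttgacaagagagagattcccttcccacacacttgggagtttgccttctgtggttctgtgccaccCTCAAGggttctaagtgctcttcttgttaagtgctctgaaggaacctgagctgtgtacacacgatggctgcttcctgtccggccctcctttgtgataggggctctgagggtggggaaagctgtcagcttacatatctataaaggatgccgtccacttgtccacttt
Lamp3, minus strand of chr16:19706366-19706615: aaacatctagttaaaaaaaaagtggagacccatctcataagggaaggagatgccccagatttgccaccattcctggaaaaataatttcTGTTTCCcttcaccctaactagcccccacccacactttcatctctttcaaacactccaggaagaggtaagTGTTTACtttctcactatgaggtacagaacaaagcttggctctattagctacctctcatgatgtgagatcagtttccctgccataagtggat

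The Sftpb window held 2 CTCAAG matches, starting 100 and 15 bases before the start, and a forkhead match that reads GCAAACA on this strand, starting 88 bases before it. The Sftpa1 window held 1 CTCAAG match, 166 bases before the start. The Lamp3 window held 2 forkhead matches, 162 and 92 bases before the start, and no CTCAAG. The windows of Nkx2-1, Aqp5 and Cxcl15 held neither. These matches describe letters only. Sftpc, Sftpd, Scgb1a1 and Napsa are named here without a sequence.

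The surfactant genes Sftpc, Sftpb and Sftpd were seen in the tail-vein lung route and were brightest at its last passage. Sftpc was well above background in 6 of the 65 RNA samples, Sftpb in 5 and Sftpd in 7. In 58 samples none of the 3 passed, in 1 sample 1 passed, in 1 sample 2 passed, and in 5 samples all 3 passed. The 7 samples with any of them were all among the 24 T-LM samples, and none was among the 41 samples of P0, KPT and K-LM. They were the 4 T-LM P6 samples, T-LM P4 replicates 2 and 3, and T-LM P1 replicate 2. A single exception came from a repeat array: Sftpc passed at -7.17 on the second array of KPT P6 replicate 2, where the first array had -9.03 and did not pass.

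Sftpc encodes the hydrophobic protein made only by alveolar type 2 cells in the adult lung. In T-LM P6 its level was -3.88 in replicate 1, -1.11 in replicate 2, -2.80 in replicate 3 and -4.19 in replicate 4, all well above background. In T-LM P4 it was -4.59 in replicate 2, whereas the other 3 samples lay between -8.84 and -8.22 and did not pass. In T-LM P1 it was -6.56 in replicate 2 and between -9.53 and -9.10 in the other 4. The 6 T-LM P5 samples ran from -9.09 over a median of -8.24 to -7.44, and none passed. T-LM P5 also had the lowest share of probes well above background of the groups, with a median of 28.3% against 34.8% in T-LM P4 and 34.5% in T-LM P6, and the part of this in the missing signal was not tested. The 3 T-LM P3 samples were at -8.59, -9.38 and -8.84. Both P0 samples, at -9.37 and -8.70, the 5 KPT P6 samples, between -9.60 and -8.10, and the 3 K-LM P6 samples, at -9.46, -9.53 and -9.48, were at the floor. T-LM P6 did not overlap any of these groups.

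Sftpb, which is needed to build lamellar bodies and the surface film, passed in 5 of the 6 samples in which Sftpc did. Its level in T-LM P6 was -5.90, -3.50, -4.54 and -7.36 in replicates 1 to 4, and replicate 4 did not pass. It was -6.23 in T-LM P4 replicate 2 and -6.52 in T-LM P1 replicate 2. T-LM P3 had -8.56, -9.08 and -8.63, KPT P6 averaged -8.99 ± 0.27 (SD, n = 5) and K-LM P6 averaged -9.06 ± 0.10 (SD, n = 3). Its other probe was well above background on 0 of 70 arrays, with a highest level of -7.04, so the Sftpb result rests on 1 probe.

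Sftpd encodes the collectin. Its level in T-LM P6 was -5.46, -4.52, -4.11 and -5.04, a mean of -4.78 ± 0.59 (SD, n = 4). In T-LM P4 it was -6.52 in replicate 2 and -6.57 in replicate 3, which passed, and -7.89 and -7.62 in replicates 1 and 4, which did not. It was -5.32 in T-LM P1 replicate 2. In T-LM P3 it was -8.17, -9.13 and -8.50. The other Sftpd probe passed on 9 arrays, those of T-LM P1 replicate 2, all 4 T-LM P4 samples and all 4 T-LM P6 samples. That probe averaged -5.67 ± 0.82 (SD, n = 4) in T-LM P4 and -3.18 ± 0.57 (SD, n = 4) in T-LM P6, so by it the signal was present in every T-LM P4 sample.

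**Figure D1:**
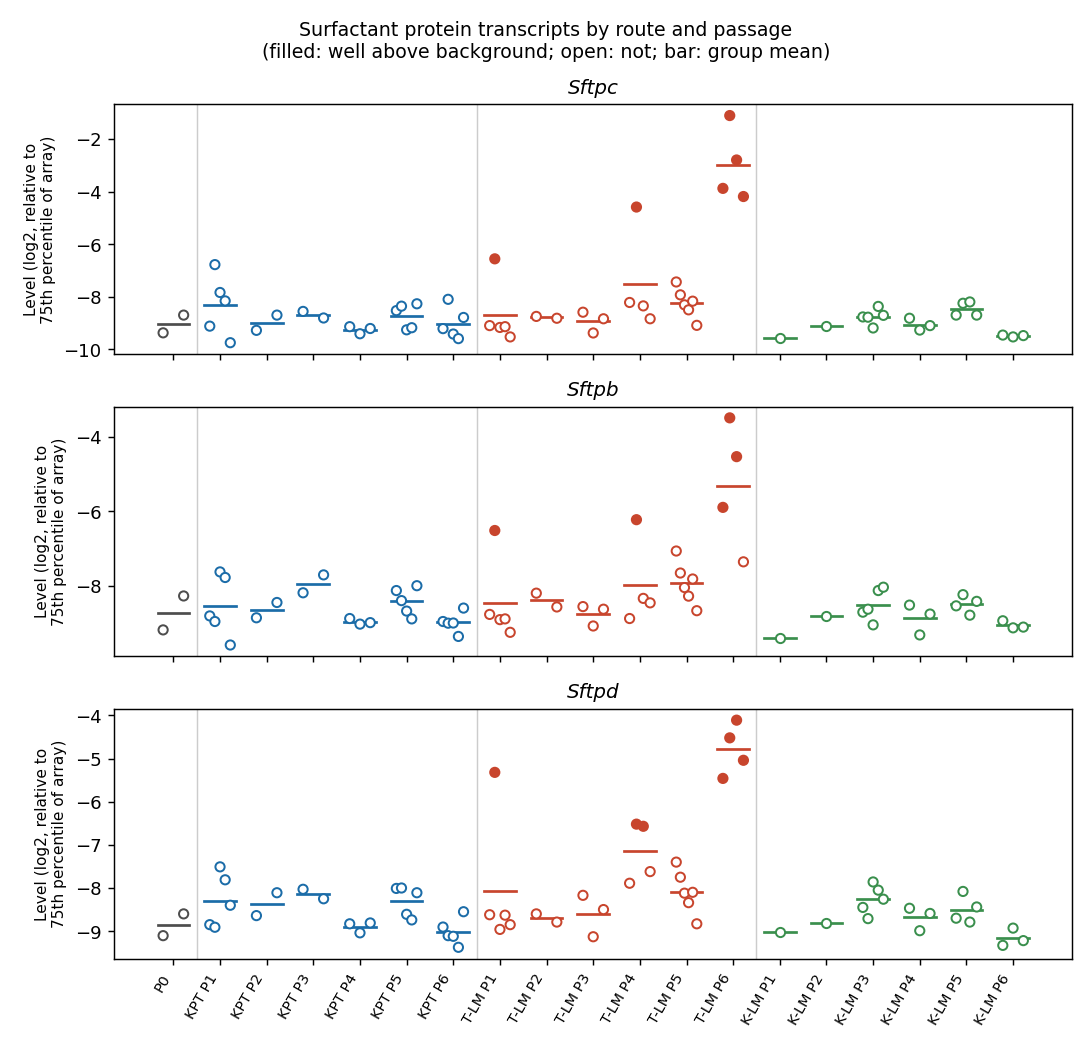
Levels of Sftpc, Sftpb and Sftpd (y axis, log2 relative to the array's 75th percentile) in each RNA sample, by group from P0 through P1 to P6 of the 3 routes (x axis). Filled points were well above background, open points were not, and bars are group means. Filled points appear in T-LM only: all 4 P6 samples (Sftpb in 3), single samples at P1 and P4, and for Sftpd a second P4 sample.

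The samples with signal stood at different distances from T-LM P6. Relative to the mean of T-LM P6, T-LM P4 replicate 2 differed by -1.60 for Sftpc, by -1.73 for Sftpd and by -1.57 for the other Sftpd probe. In T-LM P1 replicate 2 the differences were -3.56 for Sftpc, -0.53 for Sftpd and -2.22 for the other Sftpd probe, so the 2 Sftpd probes did not give the same distance. Within T-LM P6, replicate 2 was the highest for Sftpc, at 1.88 above the mean. For Sftpd the highest sample was replicate 3 by the first probe, at 0.67 above the mean, and replicate 2 by the other, at 0.56. These differences are on the log2 scale and have no test.

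Sftpc, Sftpb and Sftpd rose in T-LM from P3 to P6. The fitted log2 changes were 5.94 (SE 0.79, limma adjusted p = 4.77e-05) for Sftpc, 3.43 (SE 0.69, adjusted p = 0.0022) for Sftpb and 3.82 (SE 0.39, adjusted p = 2.45e-06) for Sftpd. Since no T-LM P3 array passed for them, the changes are bounds: when each P3 array was set to its dimmest passing signal, the levels were at least 13.7-fold, 2.72-fold and 3.96-fold higher at P6. The other Sftpd probe changed by 5.83 (SE 0.41, adjusted p = 2.77e-08). On the 3 slides that held both passages, the differences ran from 4.65 to 7.47 for Sftpc, from 1.28 to 5.07 for Sftpb and from 3.46 to 5.02 for Sftpd. Leaving out any single T-LM P3 or P6 sample kept these 3 calls. The Sftpb call was lost with slide as a fixed term (adjusted p = 0.0138), with a model of P3 and P6 alone (adjusted p = 0.0318) and with dim values set to a floor (1.67, adjusted p = 0.0315). In this comparison 7 members were tested and 3 were called, all higher, where 7.04% of 21381 probes were called. Only probes passing on 2 or more arrays were tested, and these 3 genes qualified through the T-LM samples in which they were high, so the count is not evidence by itself. The same holds for every later count of called members that includes Sftpc, Sftpb or Sftpd. Scgb1a1 (0.84, adjusted p = 0.166), Aqp5 (1.52, adjusted p = 0.0163), Lamp3 (0.06) and Napsa (0.57, adjusted p = 0.186) were not called.

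The 3 genes also differed between routes at P6, in comparisons that were added after the values were seen. Against KPT, T-LM P6 was higher by a log2 difference of 5.89 (SE 0.62, adjusted p = 1.21e-09) for Sftpc, 3.42 (SE 0.46, adjusted p = 6.73e-07) for Sftpb and 3.96 (SE 0.40, adjusted p = 4.29e-10) for Sftpd. As bounds these were at least 3.41-fold for Sftpb and 4.96-fold for Sftpd, and no bound is given for Sftpc, which passed on 1 repeat array of KPT P6. These were 3 of 7 members tested, where 2.54% of 26328 probes were called. On the only slide with both groups the differences were 4.53, 1.24 and 3.36. Against K-LM, which was also recovered from lung, T-LM P6 was higher by 6.07 (SE 0.78, adjusted p = 2.52e-07) for Sftpc, 2.93 (SE 0.58, adjusted p = 0.000597) for Sftpb and 3.51 (SE 0.50, adjusted p = 2.08e-06) for Sftpd. The bounds were at least 19.2-fold, 3.83-fold and 5.57-fold. With Aqp5 and Lamp3, described below, 5 of 7 members were called, where 3.01% of probes were. T-LM P6 and K-LM P6 shared no slide.

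The change from P3 to P6 itself was larger in T-LM than in KPT, by 6.14 (SE 1.06, adjusted p = 0.000748) for Sftpc, 4.23 (SE 0.79, adjusted p = 0.00208) for Sftpb and 4.42 (SE 0.68, adjusted p = 0.000131) for Sftpd. These were 3 of 7 members, where 0.194% of probes were called. This count is not evidence by itself, and the comparisons of change were also added after the values were seen. In KPT at P3 and P6 the 3 genes were not well above background, apart from Sftpc on 1 repeat array, so the KPT change they are set against is one of background values and the sizes are not measured. With dim values set to a floor the differences were 3.88 for Sftpc (adjusted p = 3.63e-07), 2.09 for Sftpd (adjusted p = 1.16e-06) and 1.67 for Sftpb, which was then not called (adjusted p = 0.0364). Without KPT P3 replicate 1, or without KPT P3 replicate 2, only Sftpd of the 3 was called (Sftpc 6.01 and 6.26, adjusted p = 0.0245 and 0.0113). Sftpb was also lost without T-LM P6 replicate 2 or T-LM P3 replicate 3 (3.62 and 4.07, adjusted p = 0.01 and 0.0116). Compared with K-LM, the change was larger by 6.24 (SE 1.04, adjusted p = 0.000128) for Sftpc and 3.84 (SE 0.67, adjusted p = 0.000218) for Sftpd, and by 3.18 (SE 0.77, adjusted p = 0.0135) for Sftpb, which missed the threshold. K-LM was likewise at the floor at both passages, and with a floor the differences were 3.88 for Sftpc and 2.09 for Sftpd. With Aqp5, 3 of 7 members were called, where 0.771% of probes were. These comparisons share the T-LM samples and are not independent of each other.

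Measured from P0, Sftpc (5.38, SE 0.89, adjusted p = 0.000342, at least 14.7-fold) and Sftpd (3.45, SE 0.44, adjusted p = 1.77e-05, at least 4.25-fold) were higher in T-LM P6, and Sftpb was at 2.87 (SE 0.78, adjusted p = 0.0185). Without P0 replicate 1 Sftpc was at 5.11 and not called (adjusted p = 0.0126), and with slide as a fixed term neither was called (4.27 and 3.00, adjusted p = 0.0414 and 0.0106). With the fall of Aqp5, 3 of 7 members were called, where 7.33% of 21381 probes were. From P1 to P6 in T-LM, Sftpc rose by 5.70 (SE 0.72), Sftpb by 3.14 (SE 0.64) and Sftpd by 3.29 (SE 0.54). The limma adjusted p-values were 8.75e-06, 0.00144 and 0.000183. Scgb1a1 and Lamp3 were also called, so 5 of 7 members were, where 9.05% of 23488 probes were. Without T-LM P1 replicate 2 the 3 surfactant changes were 6.24, 3.63 and 3.98, and Scgb1a1 was no longer called (1.47, adjusted p = 0.017). Without T-LM P6 replicate 2, 3 members were called, and Sftpb (2.54, adjusted p = 0.0101) and Scgb1a1 (1.67, adjusted p = 0.013) were lost. Levels of Sftpb and Sftpd overlapped between T-LM P1 and P6. In a limma model of P1 and P6 alone neither was called (adjusted p = 0.0283 and 0.0158). The Sftpb call was also lost with slide as a fixed term (adjusted p = 0.0117).

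Averaged over P2 to P6, Sftpc was higher in T-LM than in KPT by 1.61 (SE 0.34, adjusted p = 0.00126) and Sftpd by 1.03 (SE 0.22, adjusted p = 0.00139), and Sftpb was at 0.87 (adjusted p = 0.0244). These were 2 of 7 members, where 2.62% of 26328 probes were called. Of the 4 slide and passage pairs holding both routes, only the P6 pair had signal, differing by 4.53 for Sftpc and 3.36 for Sftpd. The others were P5 pairs, in which neither gene passed, so their differences (-0.33 to 0.19) carry no meaning. At P1, 0 of 7 members differed between T-LM and KPT by limma, with 1 of them, Aqp5, at an unadjusted p under 0.05, and 0.555% of 25032 probes were called. Sftpc, Sftpb and Sftpd passed there in 0 of 5 KPT and 1 of 5 T-LM samples. For them the P1 comparison is mostly one of background values and does not show that the routes were alike. Between K-LM and KPT over P2 to P6, 0 of 7 were called, with 1, Aqp5 (-0.73, adjusted p = 0.0142), at an unadjusted p under 0.05, and 2.26% of probes were called. The second Aqp5 probe, at the same -0.73, was called there (adjusted p = 0.00887). Sftpc, Sftpb and Sftpd were among these 7 only because the fit held T-LM arrays. They passed in no K-LM or KPT sample, apart from Sftpc on 1 repeat array. For them the K-LM comparison is one of background values and does not show that the routes were alike.

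**Figure D2:**
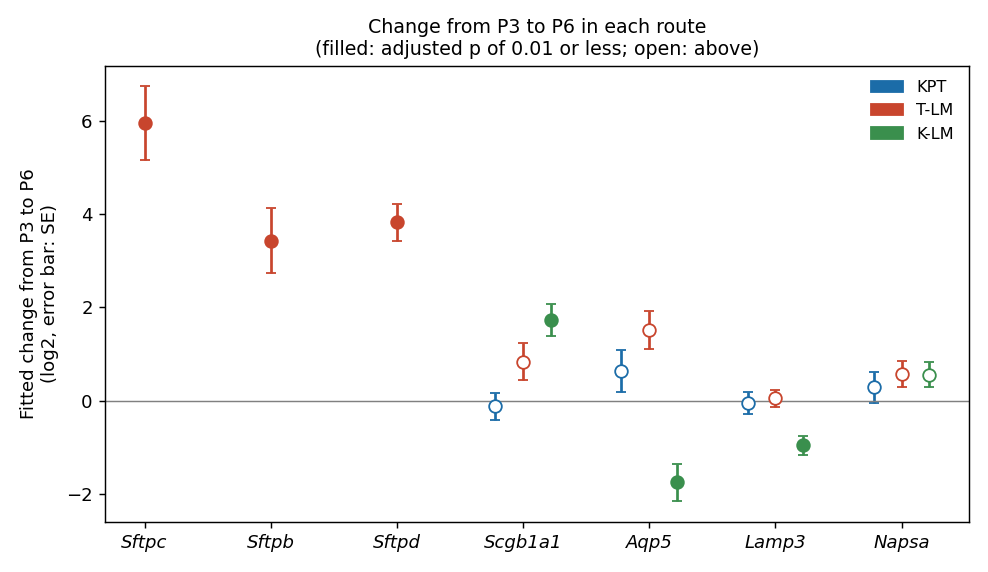
Fitted log2 change from P3 to P6 (y axis) of the members tested in each route (x axis, by gene, coloured by route), with bars of 1 standard error. Filled points were called and open points were not. Sftpc, Sftpb and Sftpd lie between 3.43 and 5.94 in T-LM, and Aqp5 and Lamp3 lie below 0 in K-LM.

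Other genes of the same cell types were read from 12 lists of markers. Of the 57 list genes tested in T-LM from P3 to P6, 28 had no T-LM P3 array above background, among them 18 of the 27 called. Such genes entered the test through the samples in which they were high, so the counts and medians below describe the lists and support nothing, and a change of such a gene is given as a bound. Of 8 further genes of alveolar type 2 cells, 5 were tested and 3 rose. Muc1, a surface mucin, was at least 3.04-fold higher (adjusted p = 1.76e-06), Chil1, a chitinase-like protein, at least 2.74-fold, and Etv5, a transcription factor of type 2 cells, rose by 2.49 on the log2 scale. The median fitted change of the 5 was 2.75, where the median over all tested probes was 0.09. The lipid carrier Abca3 was well above background in all 65 samples and lay between -1.84 and -1.17 in T-LM P6, whereas the phosphate transporter Slc34a2 was not well above background in any. Of 7 genes of alveolar type 1 cells, 6 were tested and 3 rose, with a median of 1.47. Akap5 was at least 4.22-fold higher (adjusted p = 1.43e-06), the receptor gene Ager at least 2.22-fold, and Gprc5a rose by 1.02. Gprc5a also rose in K-LM from P3 to P6, by 0.91 (limma adjusted p = 0.0025). Of 8 genes of airway club and ciliated cells, 2 were tested and 1, the ciliary factor Foxj1, was at least 1.28-fold higher, with a median of 1.09. Scgb3a2 and Bpifa1, secreted by airway cells, were not well above background in any sample. Of 9 other aquaporins, 4 were tested, with a median of 0.60, Aqp1 was at least 6.70-fold higher and Aqp3 fell by 2.32.

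Of 6 transcription factors of lung epithelium other than Nkx2-1, all were tested and 2 rose, with a median of 1.70. They were Foxa2 (at least 1.80-fold, adjusted p = 3.11e-05) and Foxa1 (at least 1.17-fold, adjusted p = 0.000302), forkhead factors of lung and other endoderm. Foxa2 was well above background in 3 of the 65 samples, T-LM P6 replicates 1, 2 and 3, at -6.17, -5.39 and -5.56, and was at -6.57 without passing in replicate 4. Foxa1 passed in 2 samples, T-LM P6 replicates 2 and 3, at -5.85 and -5.81. At P6, Foxa2 was at least 2.25-fold higher in T-LM than in KPT (adjusted p = 3.5e-09) and at least 2.53-fold higher than in K-LM. Nkx2-1 itself was not well above background on any of the 70 arrays, in the same samples in which Sftpc, Sftpb and Sftpd were seen.

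Markers of cells other than epithelium moved in the same comparison. Of 8 fibroblast genes, 7 were tested and 6 rose, with a median of 4.58. Col1a1 rose by 5.90, Col1a2 by 5.52 and Col3a1 by 4.87, having passed in 1, 2 and 2 of the 3 T-LM P3 samples. Of 10 leukocyte genes, all were tested and 5 rose, with a median of 2.15. Tyrobp was at least 19.7-fold higher, Cd52 at least 15.0-fold and Fcer1g at least 22.6-fold. Of 6 alveolar macrophage genes, 5 were tested and 2 rose, with a median of 1.80, Itgax at least 2.43-fold and Fabp4 by 3.36 on the log2 scale. Fabp4 was not particular to T-LM: it passed on 3 P0 arrays and rose from P0 to P6 by 4.86 in KPT and 5.60 in K-LM. Of 5 genes of mature dendritic cells, 4 were tested and Cd83 was at least 1.65-fold higher, with a median of 0.89. Among 8 endothelial genes, 3 were tested and Cldn5 was at least 1.28-fold higher, with a median of 0.75, and Tek and Tie1 were not well above background in any sample. Of 8 genes of renal epithelial lines, 5 were tested and Epcam was at least 1.27-fold higher, with a median of 0.52. None of 8 kidney tubule genes could be tested.

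By sample, in T-LM P6, 6 to 7 of the 8 fibroblast genes were well above background, with a summed level of 0.96 to 2.73. In T-LM P5, where no surfactant gene passed, 5 to 7 did, with a summed level of 5.34 in replicate 1 and 0.44 to 1.52 in the other 5. T-LM P3 had 1 to 4, KPT P6 had 5 to 6, K-LM P6 had 5 to 6 and P0 had 0. Of the 10 leukocyte genes, 7 to 10 were well above background in T-LM P6, 9 to 10 in T-LM P4, 9 in T-LM P5 replicate 1 and 3 to 4 in the other 5 T-LM P5 samples, 5 to 7 in KPT P6, 3 to 4 in K-LM P6 and 3 in P0. Their summed level was 1.45 to 1.63 in T-LM P6, 1.57 to 2.04 in KPT P6 and 1.14 to 1.74 in K-LM P6. P0, with only 3 of the genes passing, already had 1.02 to 1.22, so this sum says little about leukocytes. The further type 2 genes numbered 4 to 5 of 8 in T-LM P6, with a summed level of 0.07 to 0.73, and 3 in KPT P6, with -1.08 to -0.79. Groups without a passing Sftpc, Sftpb or Sftpd also reached such sums. KPT P1 had -0.52 to 1.14, KPT P5 -0.81 to 2.56 and T-LM P5 -1.07 to 1.35. The part of any of these cell types in the surfactant signal was not tested. In such bulk samples, fewer cells of a type and less RNA per cell cannot be told apart. Against KPT at P6, where 2.54% of probes were called and the median over all probes was 0.00, 12 of 70 list genes tested were called, 9 of them with no KPT P6 array above background. Higher in T-LM were Chil1 (at least 3.43-fold) and Muc1 (at least 3.77-fold) of type 2 cells, Ager (at least 2.78-fold), Hopx (at least 1.69-fold) and Akap5 (3.44 on the log2 scale) of type 1 cells, the 2 Foxa genes, Lum (3.75 on the log2 scale) of fibroblasts, Cd52 (at least 17.6-fold) of leukocytes, Cldn5 (at least 1.60-fold) of endothelium and Cd83 (at least 2.06-fold) of dendritic cells. Cdh16, a cadherin of renal epithelium, was at least 4.26-fold lower. No airway, macrophage, aquaporin or kidney tubule gene was called.

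**Figure D3:**
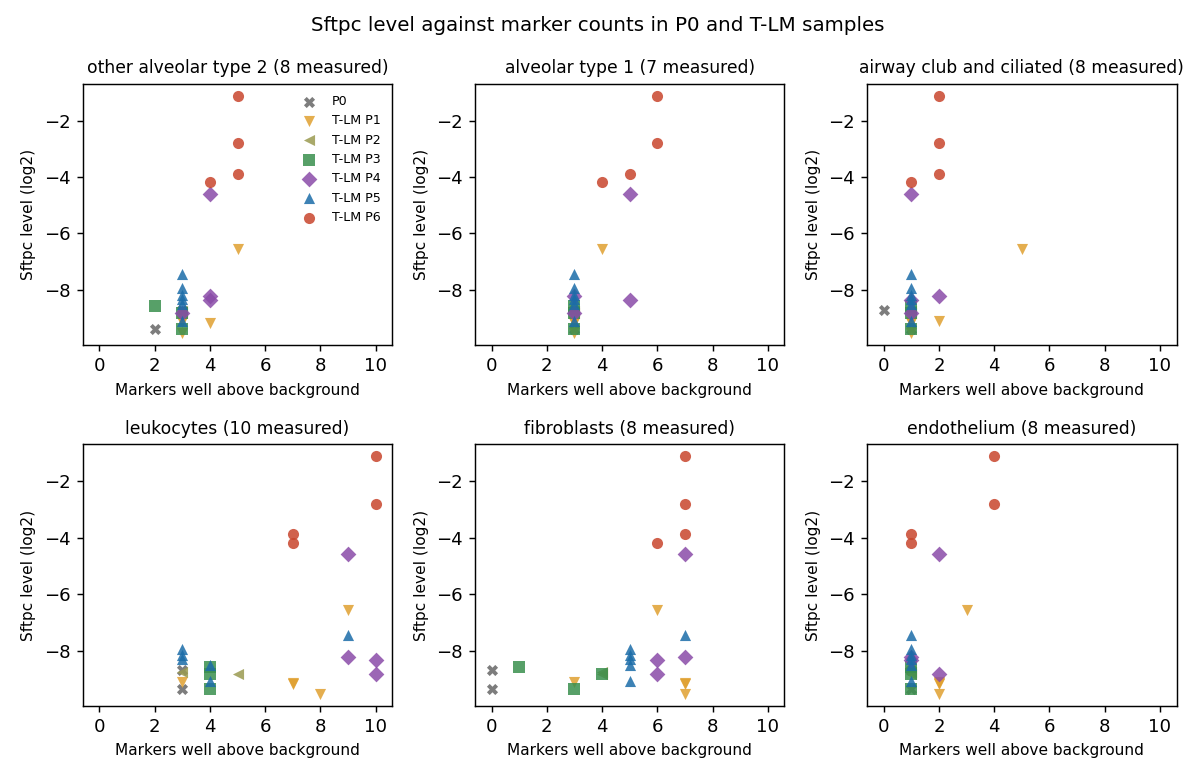
Level of Sftpc (y axis, log2 relative to the array's 75th percentile) against the number of markers well above background (x axis) in each P0 and T-LM sample, in 6 panels by marker list. Each symbol and colour is a group. Samples with 7 or more leukocyte or 5 or more fibroblast markers lie at both high and low Sftpc.

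Sftpa1, Cxcl15 and Nkx2-1 stayed at the floor. Sftpa1, the surfactant collectin A, was well above background in 1 of 65 samples, KPT P1 replicate 2, at -6.21. In that sample Sftpc was at -6.78, Sftpb at -8.96 and Sftpd at -8.91, none of them passing, and 3 of 8 further type 2 genes passed. Cxcl15 passed in 1 sample, T-LM P3 replicate 3, at -7.05. None of the 3 genes was bright enough to be tested in any comparison. Sftpa1 did not pass in any of the 4 T-LM P6 samples, in which Sftpc and Sftpd did.

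**Figure D4:**
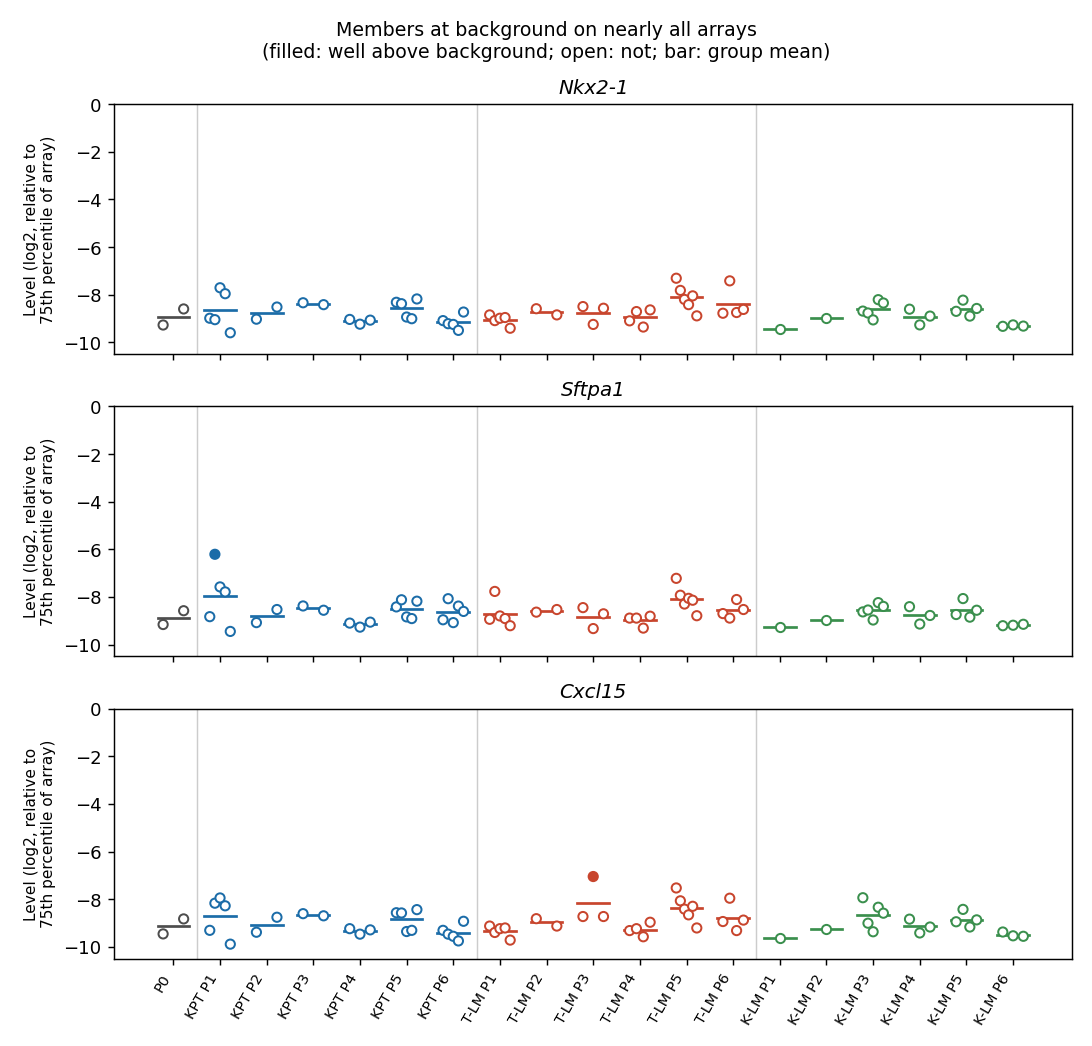
Levels of Sftpa1, Nkx2-1 and Cxcl15 (y axis, log2 relative to the array's 75th percentile) in each RNA sample by group (x axis). Filled points were well above background, which occurred in 1 sample for Sftpa1 and 1 for Cxcl15, open points were not, and bars are group means.

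Scgb1a1, the club cell protein, was seen in every route. It was well above background in 37 of 65 samples. In P0 it was at -7.12 and -6.23, and it passed only on the repeat array of replicate 1. In KPT the group means from P1 to P6 were -7.04, -5.55, -5.40, -5.12, -6.15 and -5.48. In T-LM they were -6.63, -4.86, -5.89, -5.18, -6.85 and -5.05, and in K-LM -6.50, -5.09, -5.99, -6.35, -6.82 and -4.06. In all 3 routes P1 and P5 were the lowest passages, and at P5 the gene passed in 0 of 6 T-LM and 0 of 4 K-LM samples. T-LM P6 had -6.01, -5.31, -4.30 and -4.57, and K-LM P6 had -4.44, -3.65 and -4.10, the highest group. All 5 KPT P6 samples passed and lay between -5.63 and -5.37, so the signal was not confined to the lung routes.

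Scgb1a1 rose in K-LM from P3 to P6 by 1.73 (SE 0.34, adjusted p = 0.00195; 1.53 and 0.0172 without K-LM P6 replicate 2), among 3 members called of 4 tested, where 5.86% of 22390 probes were called. From P0 to K-LM P6 it rose by 2.51 (SE 0.37, adjusted p = 3.25e-05), or by 2.40 with dim values set to a floor (adjusted p = 4.36e-05), among 2 of 4 members called, where 5.55% of probes were. On the late slide, which held P0 and K-LM P6, the difference was 2.46. Because P0 was near the floor, the size of this change is uncertain. It rose from P0 to P6 in KPT by 1.31 (SE 0.29, adjusted p = 0.00823), where neither P0 array of that fit passed, or 1.16 with a floor (adjusted p = 0.0155), among 2 of 4 members called, where 3.80% of 20978 probes were, but this call held under only 2 of 18 alternatives and was lost without any single P0 or KPT P6 sample (0.96 to 1.65, adjusted p from 0.0135 to 0.234). In KPT from P1 to P6 it rose by 1.53 (SE 0.24, adjusted p = 0.000146), or 1.26 with a floor since 1 of 5 P1 samples passed, the only 1 of 4 members called, where 11.6% of 22029 probes were. In T-LM it rose from P1 to P6 by 1.58 (SE 0.39, adjusted p = 0.00638), with 1 of 5 P1 samples passing, and on the 3 slides with both groups the difference ranged from -0.01 to 2.76. This call was lost without T-LM P1 replicate 2, 3, 4 or 5 and without T-LM P6 replicate 2, 3 or 4 (1.33 to 1.67, adjusted p from 0.0114 to 0.0309). From P3 to P6 in KPT, 0 of 4 members were called by limma and 0 had an unadjusted p under 0.05, where 0.820% of 20978 probes were called.

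Aqp5, the water channel, was highest in the cells that had never been in a mouse. The P0 levels were -2.17 and -0.43. After the first passage the 5 KPT samples lay between -3.68 and -3.07 and the 5 T-LM samples between -4.70 and -3.54, without overlap with P0. Aqp5 fell from P0 to P1 by 2.13 in KPT (SE 0.41, adjusted p = 0.00253), as 1 of 4 members called, where 4.54% of 22029 probes were, and the T-LM level fell by 2.90 (SE 0.44, adjusted p = 0.000336), as 1 of 7, where 2.78% of 23488 probes were. The second Aqp5 probe fell by 2.00 (SE 0.44, adjusted p = 0.00568) and 2.50 (adjusted p = 0.00256). Both calls rest on P0 replicate 2: without it the changes were -1.26 (adjusted p = 0.14) and -2.03 (adjusted p = 0.0612). From P0 to P6, the KPT level fell by 2.12 (SE 0.45, adjusted p = 0.00608), the T-LM level fell by 2.07 (SE 0.46, adjusted p = 0.00438) and the K-LM level fell by 4.55 (SE 0.43, adjusted p = 5.12e-08). Without P0 replicate 2 these were -1.25 (adjusted p = 0.273), -1.20 (adjusted p = 0.222) and -3.69 (adjusted p = 1.35e-05). By the second probe the KPT change was -1.97 and was not called (adjusted p = 0.0176). The T-LM change was -1.95, with adjusted p = 0.00399, and the K-LM change -4.13, with adjusted p = 7.42e-08. The KPT call was also lost without KPT P6 replicate 1, 2, 3 or 5 (adjusted p from 0.0129 to 0.0149) and the T-LM call without T-LM P6 replicate 1, 3 or 4 (adjusted p from 0.0102 to 0.0131), at nearly the same changes.

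In the later passages Aqp5 differed between the lung routes. T-LM went from -5.12, -4.76 and -4.63 at P3 to -3.50, -2.84, -3.59 and -3.35 at P6, with no overlap, and the change of 1.52 (SE 0.40) missed the threshold, while the second probe, with 1.89 (SE 0.38, adjusted p = 0.00197), was called. K-LM went from a range of -5.04 to -3.45 at P3 to -6.16, -6.52 and -5.02 at P6, a fall by 1.74 (SE 0.40, adjusted p = 0.00571). For the second probe the change was -1.31 (SE 0.37, adjusted p = 0.0175), and the first probe was not called without K-LM P6 replicate 1 or 2 or K-LM P3 replicate 5 (-1.61, -1.43 and -1.63, adjusted p = 0.0293, 0.0401 and 0.0156). At P6 the level was higher in T-LM than in K-LM by 2.48 (SE 0.41, adjusted p = 3.69e-05), or 2.19 (SE 0.39, adjusted p = 0.000116) by the second probe. The change from P3 to P6 was larger in T-LM than in K-LM by 3.25 (SE 0.55, adjusted p = 0.000146), or 3.20 by the second probe (adjusted p = 8.32e-05). Compared with KPT, the K-LM change differed by -2.38 (SE 0.55, adjusted p = 0.0187), and 0 of 7 members were called in that comparison by limma, with 3 at an unadjusted p under 0.05 and 0.296% of probes called. For Sftpc, Sftpb and Sftpd that comparison was again one of background values. T-LM P6 and KPT P6, the latter at -3.41 ± 0.17 (SD, n = 5), overlapped.

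Lamp3, the lamellar body membrane protein that is also used as a marker of mature dendritic cells, passed in all 65 samples. The P0 mean was -0.98 ± 0.42 (SD, n = 2). In KPT the group means from P1 to P6 were -1.35, -0.27, -0.62, -0.75, -0.99 and -0.62, and in T-LM -1.20, -0.27, -0.45, -0.57, -1.35 and -0.39. In T-LM P6 the 4 samples were at -0.45, -0.38, -0.33 and -0.40, whereas in Sftpc the same samples ran from -4.19 to -1.11. In K-LM P6 the level was -1.70, -1.76 and -1.58, below every K-LM P3 sample, and Lamp3 fell by 0.95 from P3 (SE 0.20, adjusted p = 0.00324). K-LM P6 was lower than T-LM P6, which was higher by 1.35 (SE 0.20, adjusted p = 3.88e-06). In T-LM Lamp3 rose from P1 to P6 by 0.81 (SE 0.15, adjusted p = 0.000718), and in KPT the same change was 0.70 (SE 0.19, adjusted p = 0.0112). The K-LM fall from P3 was not called when any single K-LM P6 replicate was left out (adjusted p from 0.01 to 0.0189), and no slide held both groups.

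Napsa, the protease, passed in all 65 samples and ran from -4.66 over a median of -3.52 to -2.62. P0 was at -4.64 and -3.74. The highest group was T-LM P4, with a mean of -2.84 ± 0.21 (SD, n = 4), and K-LM P6 followed with -2.98 ± 0.05 (SD, n = 3), their ranges overlapping. This order is of levels not adjusted for the late slide, which held all K-LM P6 arrays. With that slide as a term, T-LM P6 differed from K-LM P6 by 0.03 (SE 0.29). Napsa was not called in any of the 18 comparisons.

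**Figure D5:**
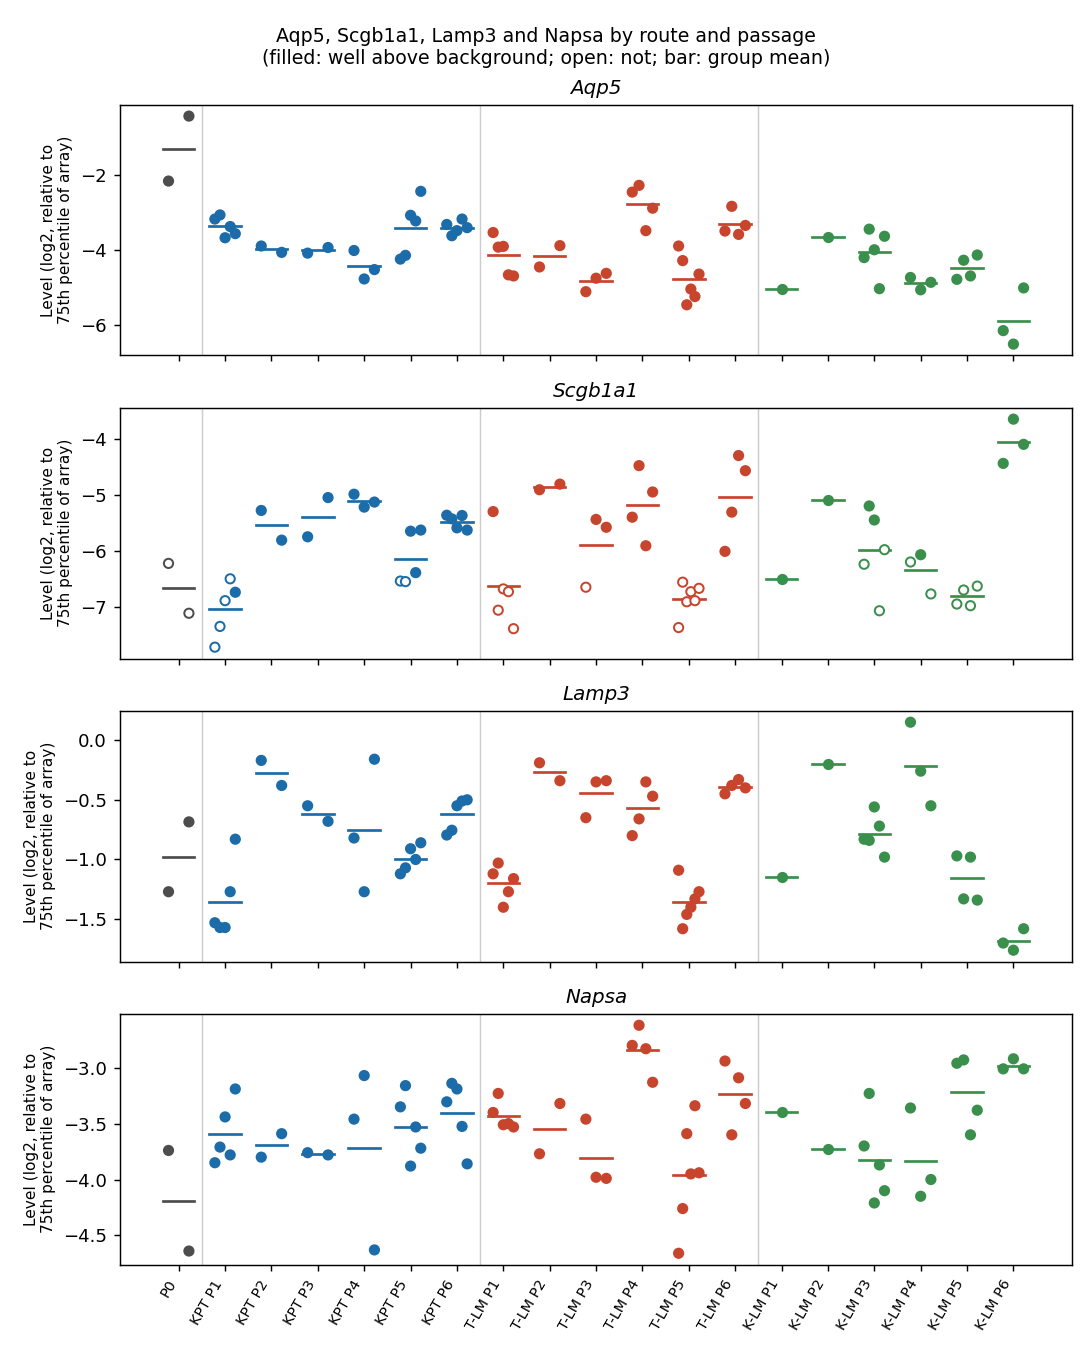
Levels of Scgb1a1, Aqp5, Lamp3 and Napsa (y axis, log2 relative to the array's 75th percentile) in each RNA sample by group (x axis). Filled points were well above background, open points were not, and bars are group means. Scgb1a1 is low at P1 and P5 in each route, Aqp5 is highest at P0, and K-LM P6 is the lowest group for Aqp5 and Lamp3.

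The members did not move as a single set. Among the 4 members seen in many samples, the 6 pairs were correlated over the 65 RNA samples. Scgb1a1 correlated with Lamp3 (r = 0.34, rho = 0.42, permutation p = 0.00608, adjusted over the 6 pairs 0.0299) and with Napsa (r = 0.32, rho = 0.29, permutation p = 0.00996, adjusted 0.0299). Without the 2 samples farthest from the median of Scgb1a1, r was 0.54 and 0.25. After subtracting group means (63 samples), r was 0.07 and 0.04, with adjusted permutation p of 0.727 for both, so these relations did not hold within groups. The other 4 pairs had r from -0.13 to 0.23, with adjusted permutation p of 0.12 or more. Within groups Scgb1a1 and Aqp5 had r = 0.31 (adjusted permutation p = 0.0265), Aqp5 and Napsa r = -0.34 (0.0187) and Lamp3 and Napsa r = -0.36 (0.0187). Lamp3 and Napsa, both genes of type 2 cells in lung, were thus negatively correlated within groups. Without the late slide the r of Scgb1a1 with Lamp3 was 0.63, and that of Lamp3 with Napsa was -0.03.

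In likeness over the 65 samples, taken as Pearson's r among 13436 symbols, Sftpc was most like Sftpb (0.92), Sftpd (0.89), Foxa2 (0.88), Akap5 (0.88) and Ano1 (0.88). Sftpb was most like Foxa2 (0.94), Sftpc (0.92) and Foxa1 (0.89), and Sftpd was most like Foxa2 (0.91), Gpx2 (0.91) and Ano1 (0.91). By the probes used, none of the 3 genes passed in 58 samples. These values mainly describe the split between those samples and the other 7, and have no test. Lamp3 and Napsa were not among the 5 symbols most like any of the 3. Both passed in all 65 samples, P0 included, so they could hardly follow genes absent from most samples. Their absence from these lists therefore carries no information on whether they moved with the 3. For the members seen in most samples, compared among 10468 symbols, Scgb1a1 was most like Kcnj15 (0.69), Aqp5 most like Camsap3 (0.76), Lamp3 most like Ppid (0.92) and Napsa most like H2-D1 (0.64). The second most like gene of Lamp3, Dph5, was at 0.71.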

How the data were processed

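Per the labels, total RNA was amplified, labelled with Cy5 and hybridised to Agilent SurePrint G3 mouse arrays. The scanner files deposited by the authors hold spot intensity, as a median intensity and as an intensity that the software had background-subtracted and detrended (version 11.0.1.1 on 62 arrays and 12.0.2.2 on the 8 of the late slide). The series values deposited by the authors are on the log2 scale, and matched quantile-normalized log2 medians within 0.107.

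Of 62976 spots per array, 3671 controls were left out and replicate spots were averaged into 55681 probes. Of these, 28026 took a symbol from RefSeq (GRCm38.p6, for names and promoters) and 27655 had none. The build of the array design is not given in the sources used here. Levels were scaled to the 75th percentile over 12209 probes well above background on all arrays. Arrays have no counting depth, so their number limits the precision.

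A probe had to pass background on 2 arrays or more of a fit and was tested with limma 3.58.1 (R 4.3.3, lmFit and eBayes, 2-sided). Each route was fitted over its passages with P0. The K-LM fits held P0, K-LM P2 to P6 and KPT P6, repeat arrays included. The comparisons of routes over P2 to P6 and at P6, and the differences in change, held all arrays. All of these fits had the late slide as a term and a random block for the RNA sample (statmod 1.5.0, 4000 probes). Correlations used 100000 permutations (scipy 1.17.1). "At least" folds compare the bright group with a dim group set, array by array, to the dimmest signal that passed.

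Simulated probes changed by 2 or 4 log2 units were called in 81% and 98% of cases for T-LM P3 to P6 (21381 probes), 80% and 96% for KPT (20978 probes) and 79% and 100% for K-LM (22390 probes), with at most 2 unchanged probes called. The simulation gave each probe normal noise of the same spread in every group, with no background floor and no effect of the late slide. Its rates therefore do not describe genes at the floor in a group, such as Sftpc, Sftpb and Sftpd.

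The members, the 12 marker lists and the comparisons were chosen with earlier results of these data known. The lists were other alveolar type 2, alveolar type 1, airway club and ciliated, transcription factors of lung epithelium, other aquaporins, leukocytes, alveolar macrophages, mature dendritic cells, endothelium, fibroblasts, kidney tubule and renal epithelial line. All members were named. Of a list, the called genes were named, or the 3 with the largest changes where more were called, besides genes singled out after their values were seen. Alternatives were another percentile, normexp correction (offset 50, on the median signal, since the files used here hold no mean), quantile normalization, the deposited log2 values, other filters and a floor, slide as a block or fixed term, a replicate block, other sets of groups in the fit, and leaving out each sample. The deviations of same-numbered samples correlated at -0.376 to 0.525 over the comparisons with shared numbers. They were all above 0 for T-LM against KPT at P1 (0.022 to 0.525) and for K-LM from P3 to P6 (0.01 to 0.218), but not all above 0.1 in any comparison with 3 or more pairs, so the numbers were not taken as pairs.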

Additional observations from a re-analysis of the deposited data

Results flagged for a closer look

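In T-LM P1, replicate 2 stood apart from the other 4 samples in Sftpc (-6.56, against -9.53 to -9.10), Sftpb (-6.52) and Sftpd (-5.32), with a gap to the nearest sample of 0.86, 0.82 and 0.91 of the group's range. Its array also had the highest share of probes well above background, 55.2%, and 5 of 8 airway genes, 9 of 10 leukocyte genes and 2 of 8 kidney tubule genes passed on it. In T-LM P4, replicate 2 stood apart in Sftpc at -4.59, with a gap of 0.85 of the range. It had 7 of 8 fibroblast genes well above background, as did replicate 1, whose Sftpc did not pass. These were 4 of 44 sets of a member and a group examined, and 3 of the 4 were the same sample. In each of the 4 sets only the sample named passed, so its gap was taken against floor values. How many sets would stand apart by chance was not measured, and sets that share a sample are not independent.

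The change from P3 to P6 differed between T-LM and KPT for Sftpc (6.14 on the log2 scale), Sftpb (4.23) and Sftpd (4.42), and between T-LM and K-LM for Sftpc (6.24), Sftpd (3.84) and Aqp5 (3.25), by a limma test of the difference itself. For Aqp5 the T-LM levels were higher at P6 than at P3 and the K-LM levels lower.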

How the results depend on the processing

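The counts of called members were computed under 430 alternatives and 371 stayed within 1.5 times the reported count. Of 798 alternatives for the 37 called changes of single members, 716 were still called and 0 reversed. The causes of the differences below were not tested. Requiring a signal on all arrays removes the surfactant genes from the test, and the counts became 0 of 3 for T-LM P3 to P6, T-LM against KPT at P6 and their difference in change, 0 of 2 for T-LM against KPT over P2 to P6, 1 of 3 for T-LM P0 to P6 and for T-LM against K-LM in change, 1 of 5 for T-LM P1 to P6, 2 of 5 for T-LM against K-LM at P6 and 1 of 2 for K-LM P0 to P6. KPT P0 to P6 went from 2 to 1 with the percentile over all probes, normexp, quantile normalization, the deposited values, no filter, the filter on all arrays, the floor and all routes in a single model, and to 0 with slide as a fixed term. KPT P1 to P6 went from 1 to 2 with the percentile over all probes, quantile normalization, the floor, slide as a random block and all routes. Slide as a fixed term gave 0 for KPT P0 to P1, 1 for T-LM P0 to P6 and 3 for T-LM P1 to P6. A fit of only the groups compared gave 0 for KPT P0 to P1 and T-LM P0 to P1, 2 for T-LM P1 to P6 and 4 for K-LM P0 to P6. All routes together gave 6 for T-LM P0 to P6. K-LM P3 to P6 went from 3 to 1 with no filter and with slide as a random block. With the replicate number as a block, the count was 0 for KPT P0 to P6, KPT P0 to P1 and K-LM P3 to P6 and 2 for KPT P1 to P6, and no other count moved beyond 1.5 times. Leaving out 1 sample gave 0 to 1 for KPT P0 to P6, 0 to 1 for KPT P0 to P1 and T-LM P0 to P1 (0 without P0 replicate 2), 1 to 2 for KPT P1 to P6 (2 without KPT P1 replicate 5), 0 to 3 for K-LM P3 to P6 (0 without K-LM P6 replicate 2, 1 without replicate 1), 3 to 5 for T-LM P1 to P6, 0 to 1 for K-LM against KPT over P2 to P6 and in change, and 1 to 3 for T-LM against KPT in change. For K-LM against KPT over P2 to P6, 1 member was called without K-LM P2 replicate 1, K-LM P4 replicate 1, K-LM P6 replicate 3, KPT P5 replicate 1 or KPT P5 replicate 2, and in change without K-LM P3 replicate 4 or K-LM P6 replicate 3. Without the late slide, r of Scgb1a1 with Aqp5 was 0.22 and of Aqp5 with Lamp3 0.07, and with the percentile over all probes r of Lamp3 with Napsa was -0.03.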

Other observations

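In T-LM P5, replicate 1 held a fibroblast summed level of 5.34 and 9 of 10 leukocyte genes well above background, while Sftpc, Sftpb and Sftpd did not pass. Lyz1, a lysozyme of type 2 cells and macrophages, was at 0.82 in that sample, inside the T-LM P4 range of 0.02 to 0.95, and between -3.78 and -2.98 in the other 5, and Tyrobp, Cd52 and Lum passed in replicate 1 and in none of the other 5. Among KPT P1 samples, replicate 5 had 7 of the 8 further type 2 genes well above background, more than any T-LM P6 sample, on an array with 41.6% of probes well above background against 31.6% to 37.3% in T-LM P6, while Sftpc, Sftpb and Sftpd did not pass there. Lamp3 followed Ppid, a cyclophilin, with r = 0.92 over the 65 samples, against 0.71 for the next gene, as a description with no test.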
